A study of Mus musculus with 6 samples.

Results

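The genes described here encode the enzymes, transporters and regulators of glycolysis, gluconeogenesis and glycogen metabolism in mouse liver. They were chosen by symbol, as a list of 41 genes out of the 16593 genes that have a probe on the array. A probe carrying the symbol was present for 38 of the 41, and 33 had a probe that passed the detection filter and were tested. The measurements are Illumina BeadChip intensities from whole livers of wild-type C57BL/6 mice, a measure of how much labelled RNA has bound the beads of each probe. The Ad-MafG group holds 3 livers and the Ad-Control group, also named Ad-CMV in the labels, another 3. Every mouse in both groups therefore received a vector of the "Ad" kind, and no liver without a vector was analysed here. Treatment lasted 5 days, food was withdrawn 4 to 6 h before collection, and every array is a different mouse. The age and sex of the mice, the vector dose and the cells that took up the vector are not stated in these sources.

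The liver takes up glucose after a meal, phosphorylates it, and stores it as glycogen or breaks it down through glycolysis to pyruvate. During a fast it runs the reverse programme, releasing glucose from glycogen and making it from lactate, glycerol and amino acids by gluconeogenesis, under glucagon and insulin control. Most steps have a form of the enzyme made in hepatocytes and other forms made in muscle, brain or blood cells. MafG belongs to the small Maf family of DNA-binding proteins, which pair with other factors and have no activation domain of their own.

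All 6 arrays lay on 1 slide. Median non-normalized signals ran from 181.6 to 185.8 on the Ad-MafG arrays and from 160.6 to 180 on the Ad-Control arrays, and 12079 to 13042 of 25697 probes were detected per array. Of the hepatocyte markers 11 of the 12 with a probe were tested, and the remaining one, Fgb, was below detection on all arrays. None of the 11 passed the test, with a median log2 fold change of -0.07, and Alb, the albumin gene, read low on this array (means of 6.36 in Ad-MafG and 6.70 in Ad-Control). The hepatocyte sum was 287838 to 300067 in the Ad-MafG livers and 300936 to 311542 in the Ad-Control livers, which do not overlap. Groups were apart for 4 of the 11 genes, near the share of 36.2% over all genes tested. The part of the hepatocyte sum in the lower values of hepatocyte genes below was not tested. The array's probe for Mafg itself read lower in the livers labelled Ad-MafG (log2 fold change -0.54, SE 0.11, adjusted p = 0.0341, kept in 1 of 6 fits that leave out an array), and whether that probe can see the delivered Mafg is not stated. Every direction below therefore rests on the labels. Fold changes set Ad-MafG over Ad-Control, as differences in log2 normalized intensity, tested with limma over 8827 genes with Benjamini-Hochberg adjustment, and a gene is called higher or lower when the adjusted p is under 0.05.

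Promoter sequences are shown for members past that threshold, because they changed in the same comparison and a reader may wish to see what lies at their starts. The RefSeq promoter table of GRCm38.p6, which gives 250 bases before and 50 bases after each start, held 39 of the 41 members in 58 windows, and 5 of the 6 members past the threshold. Capitals mark matches, on either strand, to the antioxidant response element core TGACNNNGC, the Maf recognition half-site TGCTGA and the cAMP response element half-site TGACG. The first and the last of these can overlap, since both begin with TGAC. For genes with more than 1 listed start the window with the most matches is printed.
Pck1 (chr2:173152823-173153122, plus strand): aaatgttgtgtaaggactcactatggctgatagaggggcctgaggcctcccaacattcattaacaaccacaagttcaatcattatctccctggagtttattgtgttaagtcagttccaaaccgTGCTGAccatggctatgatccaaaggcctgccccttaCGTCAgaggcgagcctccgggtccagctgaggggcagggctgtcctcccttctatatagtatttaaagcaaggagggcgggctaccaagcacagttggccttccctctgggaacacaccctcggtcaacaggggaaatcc
Pklr (chr3:89136373-89136672, plus strand): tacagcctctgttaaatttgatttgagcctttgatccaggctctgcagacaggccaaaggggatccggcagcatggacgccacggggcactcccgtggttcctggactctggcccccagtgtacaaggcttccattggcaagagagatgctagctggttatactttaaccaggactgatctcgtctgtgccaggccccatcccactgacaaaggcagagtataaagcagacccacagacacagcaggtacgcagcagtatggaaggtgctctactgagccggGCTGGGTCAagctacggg
Pdk1 (chr2:71872974-71873273, plus strand): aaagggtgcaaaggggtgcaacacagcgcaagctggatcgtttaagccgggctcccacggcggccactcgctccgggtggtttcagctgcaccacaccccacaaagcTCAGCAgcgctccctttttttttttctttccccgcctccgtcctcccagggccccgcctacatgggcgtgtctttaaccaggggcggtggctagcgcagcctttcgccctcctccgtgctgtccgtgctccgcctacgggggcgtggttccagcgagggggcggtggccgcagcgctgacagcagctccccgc
Hk2 (chr6:82774405-82774704, minus strand): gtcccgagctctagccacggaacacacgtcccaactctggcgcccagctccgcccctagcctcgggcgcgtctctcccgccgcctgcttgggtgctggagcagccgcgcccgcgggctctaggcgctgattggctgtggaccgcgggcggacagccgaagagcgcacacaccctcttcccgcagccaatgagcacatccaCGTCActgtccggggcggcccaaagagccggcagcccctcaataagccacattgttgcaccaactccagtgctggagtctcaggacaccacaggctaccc
Hk3 (chr13:55021336-55021635, minus strand): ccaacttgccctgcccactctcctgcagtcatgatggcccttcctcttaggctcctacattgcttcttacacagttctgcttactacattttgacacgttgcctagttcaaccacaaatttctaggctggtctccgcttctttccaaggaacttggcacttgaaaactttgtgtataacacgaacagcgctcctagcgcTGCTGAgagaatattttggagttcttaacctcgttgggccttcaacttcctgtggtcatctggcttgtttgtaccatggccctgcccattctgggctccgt
The Pck1 window held TGCTGA at positions -127 to -122 and CGTCA, the other strand of TGACG, at -90 to -86, counted from the start. In Pklr, which has 2 listed starts, the shown window of the second start held GCTGGGTCA at positions 33 to 41. Pdk1 held TCAGCA at -143 to -138, Hk2 held CGTCA at -50 to -46 and Hk3 held TGCTGA at -51 to -46. Of all 32851 windows, 12.4% held TGACNNNGC, 19.5% held TGCTGA and 20.8% held TGACG. Among the 58 windows of members the shares were 10.3%, 15.5% and 24.1%. These matches describe letters in a window and are not evidence of binding.

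Among the 33 members tested, 4 fell and 2 rose in the Ad-MafG livers, and 27 did not pass the test. The genes that fell were Gys2, the liver glycogen synthase, Pklr, the pyruvate kinase of liver and red cells, Pck1, the cytosolic phosphoenolpyruvate carboxykinase that commits carbon to gluconeogenesis, and Pdk1, a pyruvate dehydrogenase kinase. The genes that rose were Hk2 and Hk3, which encode hexokinases, the enzymes that phosphorylate glucose on entry. The share called was 18.2% of the members tested against 9.91% of all genes tested, where 6.29% were higher (555 genes) and 3.63% lower (320 genes). Higher calls were 63.4% of all calls, 75.3% with median scaling and 52.5% with median scaling over detected probes. Values of the 3 Ad-MafG livers lay wholly on 1 side of those of the 3 Ad-Control livers for 21 members, 8 of them higher and 13 lower. That is 63.6% of the members tested, against 36.2% of all genes tested. The members' median log2 fold change was -0.11, beside -0.02 over all genes. The 33 probes that stand for these members were each detected on all 6 arrays, so no member's fold change is a bound.

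**Figure D1:**
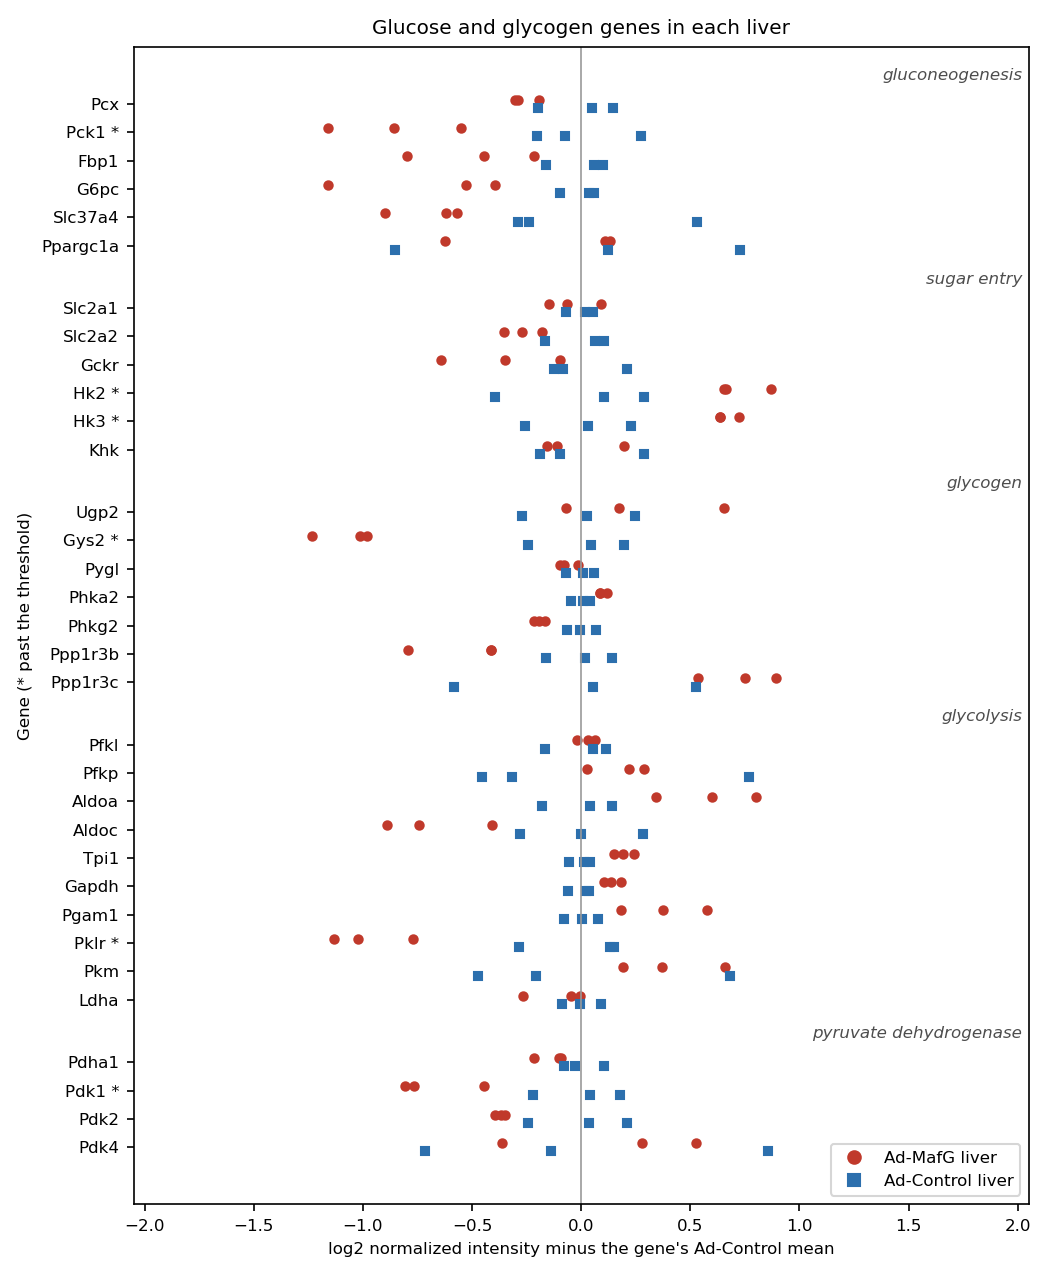
Each row is a tested member and each point 1 liver (circles Ad-MafG, squares Ad-Control), plotted on the horizontal axis as its log2 normalized intensity minus the gene's Ad-Control mean; asterisks mark the 6 members past the threshold. The Ad-MafG points of Gys2, Pklr, Pck1 and Pdk1 all lie left of the Ad-Control points, and those of Hk2 and Hk3 all lie right of them.

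The 8 members without a test fall into 3 kinds. No probe carried the symbols Gpi1, Pfkfb1 or Eno1. The single probes for Gbe1, the glycogen branching enzyme, and for Pgm2, a phosphoglucomutase family gene, were below detection on all 6 arrays. Pgk1, the phosphoglycerate kinase of glycolysis, was detected on 1 array of each group, Hk1, the hexokinase found in most tissues, on 0 Ad-MafG arrays and 1 Ad-Control array, and Pfkfb3, which makes the phosphofructokinase activator fructose 2,6-bisphosphate, on 0 Ad-MafG arrays and 2 Ad-Control arrays.

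Among genes of gluconeogenesis 6 of 6 log2 fold changes were below 0, with a median of -0.59, but only Pck1 passed the test. That is 16.7% called, against 9.91% of all genes tested. Over all genes 4659 of 8827 were below 0. Pck1 had normalized log2 intensities of 10.45, 10.76 and 10.15 in the Ad-MafG livers and 11.23, 11.11 and 11.58 in the Ad-Control livers. The highest Ad-MafG liver was below the lowest Ad-Control liver. Pck1 fell by 0.85 on the log2 scale (SE 0.19, adjusted p = 0.0375), which is 1.81-fold lower. That call was lost without Ad-MafG 1 (adjusted p = 0.1), Ad-MafG 3 (0.111), Ad-Control 1 (0.0826) or Ad-Control 3 (0.098).

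G6pc, the catalytic subunit of glucose-6-phosphatase that releases free glucose, had 13.85, 13.98 and 13.22 in the Ad-MafG livers against 14.42, 14.28 and 14.44 in the Ad-Control livers. The groups did not overlap, and Ad-MafG 3 lay apart from the other two below it. The log2 fold change of -0.69 (SE 0.20) missed the threshold with an adjusted p of 0.0676. G6pc passed in 4 of 18 alternatives, with an adjusted p down to 0.0329. Its partner Slc37a4, which carries glucose 6-phosphate into the endoplasmic reticulum, had 9.93, 9.98 and 9.65 in the Ad-MafG livers and 10.27, 10.31 and 11.08 in the Ad-Control livers. Here the groups did not overlap either, and Ad-Control 3 was highest. The log2 fold change was -0.70 (SE 0.23, adjusted p = 0.0936), and -0.43 without Ad-Control 3.

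Fbp1, the liver fructose-1,6-bisphosphatase, read 13.39, 13.62 and 13.04 in the Ad-MafG group and 13.94, 13.68 and 13.90 in the Ad-Control group. Its log2 fold change of -0.49 (SE 0.16, adjusted p = 0.101) passed in 1 of 18 alternatives, median scaling over detected probes. For Pcx, the mitochondrial pyruvate carboxylase at the head of the pathway, the values were 10.24, 10.33 and 10.22 in Ad-MafG against 10.67, 10.33 and 10.58 in Ad-Control. The groups overlapped at Ad-MafG 2 and Ad-Control 2, and the log2 fold change was -0.26 (95% interval -0.54 to 0.02, adjusted p = 0.193). Ppargc1a, a coactivator that raises Pck1 and G6pc transcription in fasted liver, had 8.91, 8.93 and 8.18 in Ad-MafG livers and 8.93, 7.95 and 9.53 in Ad-Control livers. It varied more within each group than between them, with a log2 fold change of -0.13 and a 95% interval from -1.06 to 0.81. The 6 genes were below 0 under all 6 other background and scaling settings as well, with medians from -0.76 to -0.56. These settings use the same 6 arrays. On non-normalized group means the log2 ratio was above 0 for Pcx (0.02) and Ppargc1a (0.13). It was below 0 for Pck1, G6pc, Slc37a4 and Fbp1. Ppargc1a was also above 0 without Ad-MafG 3 (0.12) or Ad-Control 3 (0.24), and below 0 without any other array.

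In the steps by which sugar enters the cell and is phosphorylated, 2 of 6 tested genes rose and 0 fell. Over all genes tested 6.29% were called higher and 3.63% lower. Hk2, the hexokinase of muscle, fat and dividing cells, had 9.39, 9.61 and 9.40 in the Ad-MafG livers and 9.03, 8.84 and 8.34 in the Ad-Control livers. Hk2 rose by 0.73 on the log2 scale (SE 0.18, adjusted p = 0.0494), which is 1.66-fold. Hk3, a hexokinase made mainly by myeloid cells, had 9.84, 9.75 and 9.75 in the Ad-MafG livers against 9.14, 9.34 and 8.86 in the Ad-Control livers. The rise of Hk3 was 0.67 on the log2 scale, or 1.59-fold (SE 0.14, adjusted p = 0.0325). In both genes the Ad-MafG livers lay close together and above every Ad-Control liver. Hk2 was past the threshold in 0 of the 6 fits that leave out an array (adjusted p from 0.0535 to 0.128), and Hk3 in 1, without Ad-Control 2 (0.0201), the others giving up to 0.102.

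Markers of other cells also differed. The counts below stand beside 6.29% called higher and 3.63% called lower over all genes tested. Among macrophage and Kupffer cell markers, with 11 tested, 5 rose (Adgre1, C1qa, C1qb, C1qc and Cd14) and 1, Cd163, fell (log2 fold change -1.24). The rest did not pass, with Timd4 at -1.48, Marco at -1.06, Clec4f at 0.27, Vsig4 at 0.24 and Lyz2 at 0.45. The summed normalized intensity of the 11 was 29127 to 31112 in the Ad-MafG livers and 14746 to 19722 in the Ad-Control livers. Cd5l was below detection on all arrays. Of 11 proliferation markers tested 8 rose, with sums of 5378 to 6380 in Ad-MafG livers and 1875 to 3307 in Ad-Control livers, and Ccna2, Ccnb2 and Bub1 were below detection throughout. Of 13 stellate cell and fibroblast markers tested 4 rose, with sums of 15831 to 18399 in Ad-MafG and 13720 to 15777 in Ad-Control livers. Their part in the rise of Hk2 and Hk3 was not tested. In whole liver, more or fewer cells of a type and more or less RNA per cell cannot be told apart.

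Slc2a2, the glucose transporter of hepatocytes, had 12.65, 12.47 and 12.56 in the Ad-MafG livers and 12.66, 12.93 and 12.89 in the Ad-Control livers by its brightest probe. That probe's log2 fold change was -0.27 (SE 0.11, adjusted p = 0.168). Its 2 further probes gave -0.65 and -0.55, with adjusted p-values of 0.0331 and 0.0437 over all probes, so the call on Slc2a2 depends on the probe. Slc2a1, the transporter of most other tissues, had a log2 fold change of -0.04 with a 95% interval from -0.29 to 0.21. Its sign was positive with median scaling, cyclic loess and the authors' scaled values. Gckr, a regulatory protein of hepatic glucose phosphorylation, had 9.93, 10.19 and 9.64 in Ad-MafG and 10.49, 10.16 and 10.20 in Ad-Control, a log2 fold change of -0.36 (adjusted p = 0.193). Khk, the ketohexokinase that starts fructose breakdown, had -0.02 with a 95% interval from -0.41 to 0.36.

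Of 7 glycogen genes tested, Gys2 fell and 6 did not pass the test, 14.3% called against 9.91% of all genes tested. Gys2 had 10.30, 10.33 and 10.08 in the Ad-MafG livers and 11.36, 11.07 and 11.51 in the Ad-Control livers. The gap between the groups was wider than the range within either. Gys2 was 2.11-fold lower, a log2 fold change of -1.07 (SE 0.14, adjusted p = 0.0111), and this was the lowest value among the members tested. Gys2 was the only member to pass with each array left out in turn, with adjusted p-values from 0.0104 to 0.0483. The non-normalized probe signal averaged 1469.6 in Ad-MafG and 2474 in Ad-Control livers.

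The regulatory subunits that bring protein phosphatase 1 to glycogen differed in sign. Ppp1r3b, the form most typical of liver, had 10.17, 10.17 and 9.79 in the Ad-MafG livers against 10.60, 10.42 and 10.73 in the Ad-Control livers. Its log2 fold change was -0.54 (SE 0.14, adjusted p = 0.0567), and it passed in 7 of 18 alternatives. Ppp1r3c, a form found in many tissues, had 13.08, 12.72 and 12.94 in Ad-MafG and 12.24, 11.60 and 12.71 in Ad-Control. Ad-Control livers spread over a wider range than Ad-MafG livers, and the log2 fold change was 0.73 (95% interval 0.10 to 1.35, adjusted p = 0.12). No test was made of the difference between these subunits.

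The members tested for glycogen breakdown, Pygl, Phkg2 and Phka2, gave small values. Pygb, a phosphorylase outside the members, is given below. Pygl, the liver phosphorylase, had 13.40, 13.38 and 13.47 in Ad-MafG against 13.54, 13.42 and 13.49 in Ad-Control, a log2 fold change of -0.06 with a 95% interval from -0.29 to 0.16. The phosphorylase kinase subunits Phkg2 and Phka2 had -0.19 and 0.10, each with groups that did not overlap and neither past the threshold (adjusted p = 0.219 and 0.508). Ugp2, which makes the UDP-glucose used by glycogen synthase, had 11.13, 10.88 and 11.61 in Ad-MafG and 10.68, 11.20 and 10.98 in Ad-Control, with overlapping groups and a log2 fold change of 0.25 (adjusted p = 0.46).

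Along the 10 tested genes of glycolysis, Pklr fell and 9 did not pass the test, 10% called against 9.91% of all genes tested. The median was 0.16 with 7 of 10 above 0, and -0.07 with 4 above 0 under median scaling over detected probes. Pklr had 7.34, 7.23 and 7.59 in the Ad-MafG livers and 8.07, 8.49 and 8.51 in the Ad-Control livers. No Ad-MafG liver reached the lowest Ad-Control liver, and the log2 fold change was -0.97 (SE 0.16, adjusted p = 0.0171), or 1.96-fold lower. On non-normalized signals of this probe the groups overlapped, with Ad-MafG 3 at 352.5 and Ad-Control 1 at 336.3. The log2 ratio of the group means was -0.38 on that scale. A second Pklr probe gave -0.85 with an adjusted p of 0.0149 over all probes. Its non-normalized signal was low, averaging 207.4 in Ad-MafG and 234.4 in Ad-Control livers (log2 ratio -0.18), with overlapping groups. The remaining Pklr probe was below detection on all arrays. With no background correction the Pklr value was -0.63, still past the threshold, and its call was lost without Ad-MafG 1 (adjusted p = 0.067), Ad-MafG 2 (0.0561) or Ad-Control 3 (0.0538). Of 3 erythroid markers tested 1 fell, Alas2, the heme synthesis enzyme of red cell precursors (log2 fold change -1.13, adjusted p = 0.0183). Called lower over all genes tested were 3.63%. Hba-a1, an alpha globin gene, had 0.40 (adjusted p = 0.217) and Tfrc had 0.71 (adjusted p = 0.114). The erythroid sum was 14724 to 20576 in Ad-MafG and 11799 to 17291 in Ad-Control livers, and the part of red cells in the Pklr value was not tested.

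Neither aldolase gene passed the test, and the difference between them was not tested. Aldoa, the aldolase of muscle and most other tissues, had 11.09, 10.83 and 11.29 in Ad-MafG livers and 10.63, 10.53 and 10.31 in Ad-Control livers. The groups did not overlap, and the log2 fold change was 0.58 (SE 0.15, adjusted p = 0.0523), past the threshold in 6 of 18 alternatives. Aldoc, the aldolase known from brain, had 7.86, 8.19 and 7.71 in Ad-MafG and 8.60, 8.32 and 8.88 in Ad-Control, a log2 fold change of -0.68 (SE 0.18, adjusted p = 0.0576), also past it in 6 of 18.

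None of the remaining genes of glycolysis passed. Pgam1, the phosphoglycerate mutase, had 10.51, 10.32 and 10.72 in the Ad-MafG livers against 10.06, 10.22 and 10.14 in the Ad-Control livers (log2 fold change 0.38, adjusted p = 0.099). The triose phosphate isomerase gene Tpi1 had a log2 fold change of 0.20 (95% interval -0.02 to 0.41), and the value was -0.01 with the authors' scaled values and -0.10 with median scaling over detected probes. Gapdh, the glyceraldehyde-3-phosphate dehydrogenase often used as a loading control, had 0.14 (95% interval -0.08 to 0.36), and -0.07, -0.10 and -0.19 with median scaling, the authors' scaled values and median scaling over detected probes. Pfkl, the liver phosphofructokinase, had 0.03, and -0.05 with median scaling over detected probes, and its second detected probe gave -0.40 (adjusted p over all probes 0.32). Of the 33 members tested, these 3 and Slc2a1 were the 4 whose sign differed between background or scaling settings. Ldha, the lactate dehydrogenase subunit common in liver and muscle, had -0.11 with a 95% interval from -0.37 to 0.16.

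Pkm and Pfkp, the pyruvate kinase and the platelet-type phosphofructokinase of non-hepatic tissues, turned on 1 liver. Pkm had 10.25, 10.08 and 10.54 in the Ad-MafG livers and 9.67, 10.56 and 9.41 in the Ad-Control livers. Pfkp had 7.57, 7.37 and 7.63 in Ad-MafG and 7.03, 8.11 and 6.89 in Ad-Control. In both genes Ad-Control 2 was the highest of the 6 livers and the other Ad-Control livers the lowest. With all arrays the log2 fold change was 0.41 for Pkm (adjusted p = 0.387) and 0.18 for Pfkp (adjusted p = 0.731). Without Ad-Control 2 it was 0.75 for Pkm (adjusted p = 0.0383) and 0.56 for Pfkp (adjusted p = 0.0372). In that fit 13.6% of all genes tested were called, against 9.91% with all arrays. Ad-Control 2 was singled out here on the same values, so these p-values are not support for a rise. A second detected Pfkp probe gave -0.26 with all arrays (adjusted p over all probes 0.536), so the sign for Pfkp depends on the probe. Over the 7 T and NK cell markers tested the summed intensity was 2447 to 2459 in the Ad-MafG livers, and 3513 in Ad-Control 2 beside 2061 in Ad-Control 1 and 1437 in Ad-Control 3. Cd4, Cd8a, Ncr1, Gzma and Gzmb were below detection on all arrays. Ad-Control 2 also had the highest control sum of 3 neutrophil markers (1248, beside 821 and 736, with 1248 to 1403 in Ad-MafG), whose defining genes Mpo, Elane, Ngp and Cxcr2 were below detection throughout. It was the highest control for proliferation markers (3307, beside 2478 and 1875, with 5378 to 6380 in Ad-MafG) and for 3 erythroid markers (17291, beside 11799 and 14166). For macrophage and Kupffer cell markers (17724, beside 19722 and 14746), B cell markers and cholangiocyte markers it was the middle control. The lowest control was Ad-Control 2 for stellate cell (13720, beside 15777 and 15025), sinusoidal endothelial (14514, beside 16073 and 14614) and hepatocyte markers (300936, beside 311542 and 308028). The part of such cells in the Pkm and Pfkp values was not tested.

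**Figure D2:**
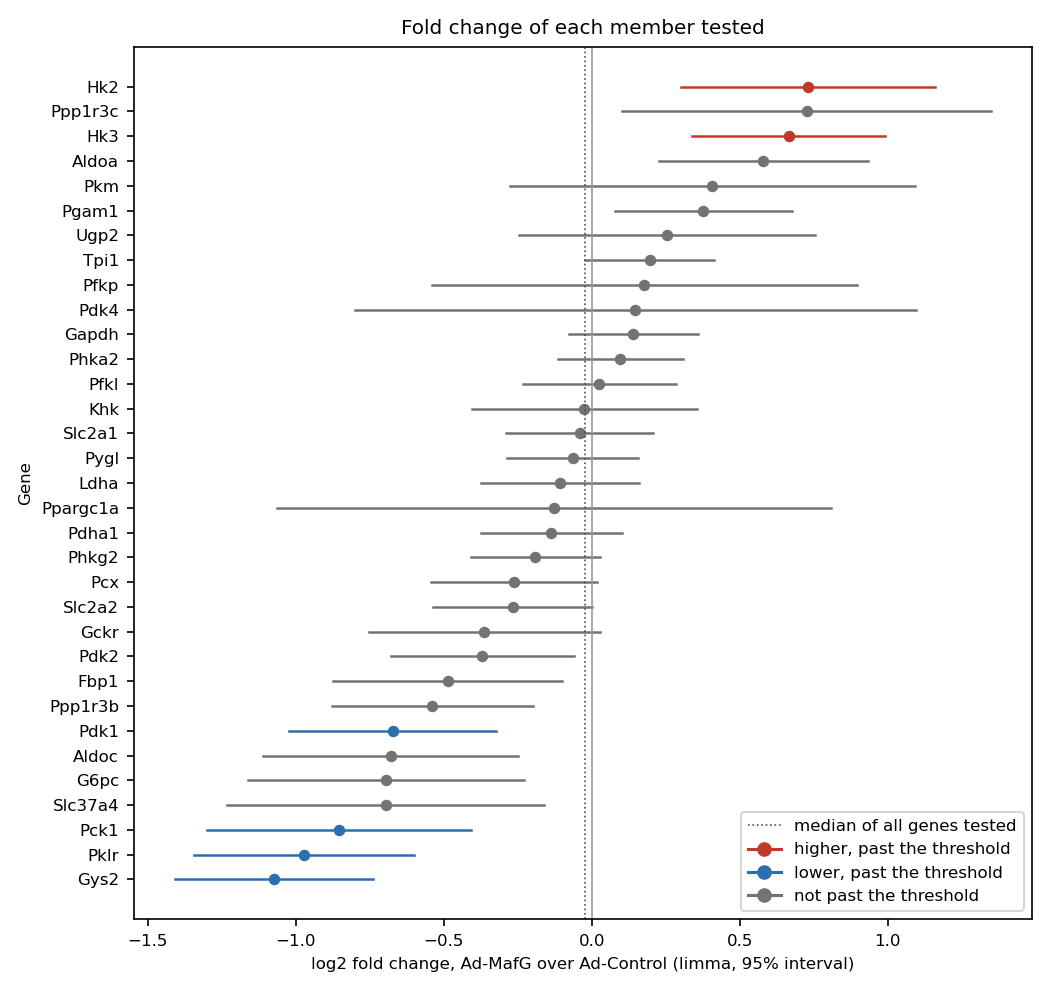
Log2 fold change, Ad-MafG over Ad-Control, of each of the 33 members tested, with its unadjusted 95% interval from limma on the horizontal axis; colours mark genes past the threshold and the dotted line the median of all genes tested. Values run from -1.07 for Gys2 to 0.73 for Hk2, and the intervals of Ppargc1a, Pdk4, Pfkp and Pkm all cross 0.

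At the step from pyruvate to acetyl-CoA, 1 of 4 genes fell, beside 3.63% called lower over all genes tested. Pdk1, a kinase that switches the pyruvate dehydrogenase complex off, had 10.02, 9.70 and 9.66 in the Ad-MafG livers and 10.51, 10.25 and 10.65 in the Ad-Control livers. The groups did not overlap, and Pdk1 fell by 0.67 on the log2 scale (SE 0.15, adjusted p = 0.0375), or 1.59-fold. Without any 1 array other than Ad-Control 2 its adjusted p was 0.0639 to 0.122. Pdk2, a kinase with a like role in many tissues, had 8.14, 8.13 and 8.10 in Ad-MafG and 8.53, 8.25 and 8.70 in Ad-Control, with a log2 fold change of -0.37 (adjusted p = 0.113) that passed without Ad-Control 2 (-0.49, adjusted p = 0.0372). Pdk4, the kinase that rises in fasted tissues, had 10.46, 9.57 and 10.21 in Ad-MafG and 10.79, 9.21 and 9.79 in Ad-Control. Its livers spread widely in both groups, and the 95% interval of its log2 fold change of 0.15 ran from -0.80 to 1.10. Pdha1, which encodes the catalytic subunit that these kinases act on, had -0.14 with a 95% interval from -0.37 to 0.10.

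Set beside each other, the liver form and another form of 7 steps gave these pairs of log2 fold changes, with the liver form first. Pyruvate kinase had -0.97 for Pklr and 0.41 for Pkm, and glycogen synthase -1.07 for Gys2 and 0.37 for Gys1 (adjusted p = 0.23), whose probe was detected on 3 Ad-MafG arrays and 1 Ad-Control array. For fructose bisphosphatase the values were -0.49 for Fbp1 and 1.75 for Fbp2, and for glycogen phosphorylase -0.06 for Pygl and 1.11 for Pygb. Phosphofructokinase had 0.03 for Pfkl and 0.18 for Pfkp, glucose transport -0.27 for Slc2a2 and -0.04 for Slc2a1, and glucose-6-phosphatase -0.69 for G6pc and -0.17 for G6pc3. The pairs were drawn up after values had been seen, so no test was made of them.

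**Figure D3:**
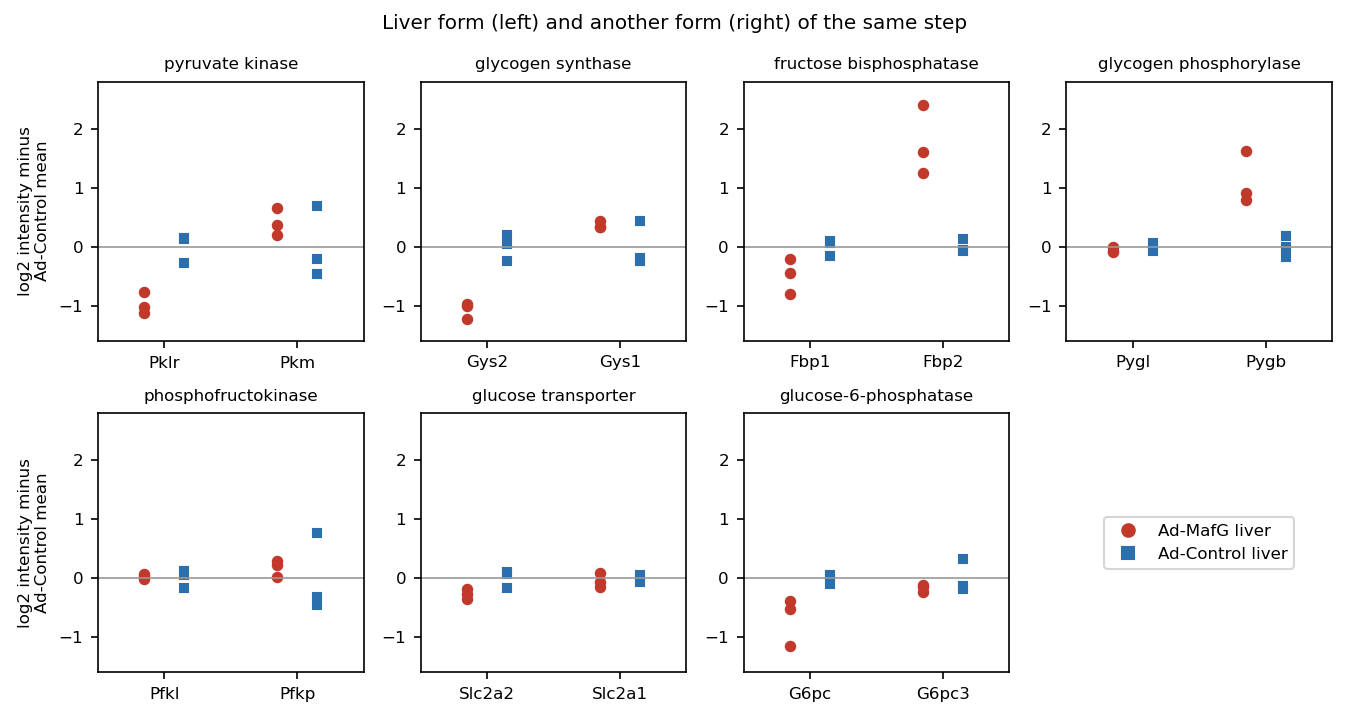
In each of the 7 panels, points are single livers (circles Ad-MafG, squares Ad-Control) and the vertical axis is log2 normalized intensity minus that gene's Ad-Control mean. In 4 panels at least 1 gene is past the threshold, namely Pklr, Gys2, Fbp2 and Pygb, and the Ad-Control 2 liver is the high square of Pkm and Pfkp.

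Other genes of these pathways, taken from a list of 78 of which 62 had a probe and 41 were tested, gave 4 that rose and 2 that fell, 14.6% of those tested against 9.91% of all genes. Fbp2, the muscle fructose-1,6-bisphosphatase, had 7.54, 7.19 and 8.33 in the Ad-MafG livers and 6.06, 5.88 and 5.85 in the Ad-Control livers. Its signal was detected on 3 Ad-MafG arrays and 2 Ad-Control arrays, and its rise was 3.37-fold, or 1.75 on the log2 scale (SE 0.27, adjusted p = 0.0156). Without background correction Fbp2 had a log2 fold change of 0.85, and without Ad-MafG 1 its adjusted p was 0.054. Pygb, the brain glycogen phosphorylase, had 7.91, 8.02 and 8.74 in Ad-MafG against 7.30, 7.11 and 6.94 in Ad-Control, a rise of 2.15-fold (adjusted p = 0.0301). With no background correction its log2 fold change was 0.69 in place of 1.11, and its call was kept only without Ad-Control 2 among the fits that leave out an array, with an adjusted p of up to 0.0867.

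Pgp, a phosphatase that clears side products of glycolysis, rose 1.56-fold (adjusted p = 0.0318), and Stbd1, a protein that tethers glycogen to membranes, rose 1.32-fold (adjusted p = 0.0494). Ldhd, the D-lactate dehydrogenase, had 10.49, 10.53 and 10.03 in the Ad-MafG livers and 11.23, 11.55 and 11.58 in the Ad-Control livers. It fell 2.15-fold (log2 fold change -1.10, SE 0.17, adjusted p = 0.0157) and missed the threshold with 1 array left out only without Ad-MafG 1 (adjusted p = 0.0531). Galm, the aldose 1-epimerase, fell as well (log2 fold change -0.41, adjusted p = 0.0437). Pgp, Stbd1 and Galm reached adjusted p-values of up to 0.0947, 0.14 and 0.13 with an array left out, Pgp and Galm passing only without Ad-Control 2 and Stbd1 in none of these fits. For Gyg, the glycogenin that primes glycogen, the log2 value was 0.70 (adjusted p = 0.0789). Over the 41 genes the median was -0.07. The probe for Pck2, the mitochondrial phosphoenolpyruvate carboxykinase, did not pass the detection filter.

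Signalling and transcription factors of hepatic glucose metabolism lay mostly below 0, with 27 of 30 tested and a median of -0.24. Over all genes 4659 of 8827 were below 0. Of the 30, 1 passed, which is 3.33% against 9.91% of all genes. This gene was Sik1, a kinase induced by glucagon signalling that restrains gluconeogenic transcription. Sik1 had 6.20, 6.44 and 6.20 in Ad-MafG livers and 7.01, 7.22 and 7.10 in Ad-Control livers, and fell 1.78-fold (log2 fold change -0.83, SE 0.12, adjusted p = 0.0118). With no background correction its log2 fold change was -0.37, and without Ad-MafG 1 its adjusted p was 0.0553. Gcgr, the glucagon receptor, had -0.56 (adjusted p = 0.0516), and Irs2, an insulin receptor substrate, -1.34 with an SE of 0.37 (adjusted p = 0.0608). Cebpa, a transcription factor of hepatocyte identity and gluconeogenesis, had -0.55 (adjusted p = 0.0702).

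Genes that follow fasting and feeding were read as well, since the fast ran from 4 to 6 h. Members known to rise in fasted liver (Pck1, G6pc, Pdk4 and Ppargc1a) or in fed liver (Pklr) are left out of the counts here. Of these members Pck1 and Pklr fell, as given above. Of 9 other genes known to rise in fasted liver 0 passed limma's threshold. An unadjusted p under 0.05 was reached by 3 of the 9, and by 29.8% of all genes tested. With other settings Fgf21 passed in 2 of 18 and Igfbp1 in 1. The fasting hormone gene Fgf21 had a log2 fold change of -0.65, Igfbp1 -0.70, Lpin1 -0.97 and Angptl4 -0.18. Of the 9 genes 8 were below 0, beside 4659 of 8827 over all genes. Of 13 other genes known to rise in fed liver 2 rose and 0 fell, with a median of 0.03. Of all genes tested 6.29% were higher and 3.63% lower. The fed-liver genes that rose were Me1, the cytosolic malic enzyme (1.94-fold, adjusted p = 0.0118), and Acaca, an acetyl-CoA carboxylase (1.77-fold, adjusted p = 0.0284). Srebf1 had -0.34 and Fasn -0.40. The part of feeding state in the values of Pck1, G6pc and Pklr was not tested. Of 12 tested hypoxia genes outside glycolysis 2 passed, 16.7% against 9.91% of all genes tested. Vegfa fell by 0.65 (adjusted p = 0.0244) and Hmox1 rose by 0.84 (adjusted p = 0.0253), with Egln1 at -0.49 and Ndrg1 at -0.36. Of the 6 fits that leave out an array, Me1 passed in 5, Acaca and Hmox1 in 2 each and Vegfa in 1.

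On non-normalized signals the directions of 8 of the 33 members differ from those above, and the Ad-MafG arrays were brighter as a whole. The median log2 ratio of group mean signals was 0.20 over all genes tested and 0.07 over the members. Among members past the threshold none changed direction on that scale. Pck1 averaged 1701.5 in Ad-MafG and 2485.7 in Ad-Control livers, Pklr 322.7 and 419.8, Pdk1 1123 and 1418, Hk2 927 and 507, and Hk3 1111 and 625. In the authors' deposited table the signed difference score had the same sign as the fold change here for 30 of the 33, and it was -54.1 for Gys2, -32.2 for Pklr, -28.2 for Pdk1, -20.7 for Pck1, 44.4 for Hk3 and 30.4 for Hk2. Slc2a1, Tpi1 and Gapdh were the exceptions. Of 12 further detected probes for 9 members, 4 had the other sign, namely 1 each of Khk, Phka2 (-0.23), Pfkl and Pfkp. The score rests on the same arrays and is not independent support.

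**Figure D4:**
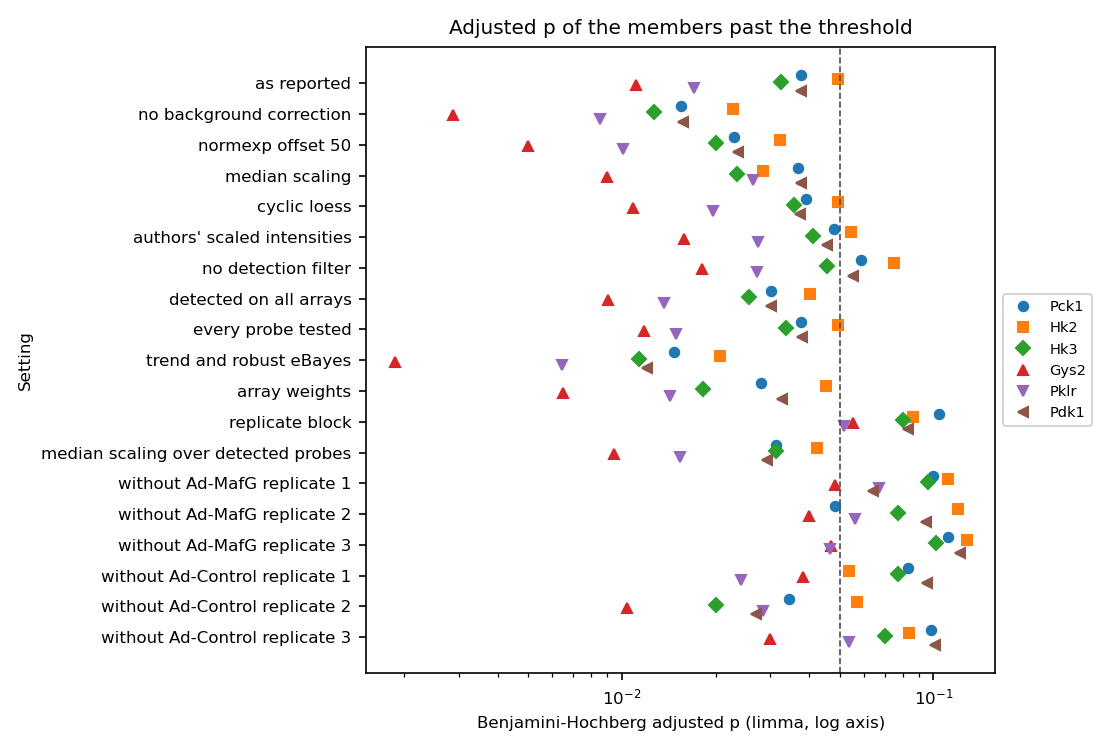
Benjamini-Hochberg adjusted p (log axis) of the 6 members past the threshold as reported and under each of 18 other settings, with the threshold of 0.05 as a dashed line. Gys2 lies left of the line in every setting except the replicate block, while Hk2 lies right of it whenever an array is left out.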

How the data were processed

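Total RNA from 6 livers was amplified, labelled with biotin and hybridised to Illumina BeadChips, per the labels' protocols. Per the file headers, the deposited non-normalized table gives the mean bead intensity of each probe and array and a detection p-value. The authors' scaled intensity per array was a straight line of that signal, with slopes from 0.872 to 1.195 and 1272 to 6904 negative values, a linear, uncentred scale with column medians from 34.2 to 46.0. How it was scaled is not stated. The authors' deposited table of group means also holds a signed difference score, per the file headers, whose error model is not stated.

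Intensities were corrected with normexp using detection p-values (offset 16), quantile normalized and taken to log2 in limma 3.58.1 (R 4.3.3). Of 25697 probes, the 12893 detected (p under 0.05) on 3 or more arrays were kept. Of all probes 23978 had 1 gene symbol in the platform annotation and 1719 had none. The probe with the highest mean stood for a gene. Groups were compared with lmFit and eBayes, two-sided, Benjamini-Hochberg adjusted over 8827 genes. The fit was also run on simulated independent noise with shifts added to some genes. That simulation held no array effects or cell mixtures, so it says nothing about them. The members, lists and settings were chosen with earlier results of these data known. Named are all members, Mafg, other pathway genes past the threshold with Gyg, Pck2 and some that are not reported here, and the 4 genes of smallest p in each other list. No coordinates of probes are given because the files name no build. Alternatives covered background, normalization, filter, probe, variance model, array weights, block and leaving out arrays. The number of arrays limits the precision.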

Additional observations from a re-analysis of the deposited data

How the results depend on the processing

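The count of all genes called was 875 as reported, with 2 members higher, 4 members lower and 6 other pathway genes. With no background correction 1322 genes and 7 members lower were called, with offset 50 in place of 16 also 7 members lower, and with trend and robust eBayes 1319 genes. Median scaling called 797 genes higher and 261 lower in place of 555 and 320; its variant over detected probes, chosen after seeing the data, called 597 and 540, with 8 members lower. With the authors' scaled values 1 member was higher, and with no detection filter 1 was higher and 2 lower, with 16593 genes in the adjustment. The members' median of -0.11 was -0.16 with median scaling, -0.19 with the authors' scaled values, -0.21 with every probe tested, where the probe of smallest p stands for a gene, and -0.28 with median scaling over detected probes; it was the same sign throughout. With 1 array left out, 115 to 1184 genes, 0 to 3 members higher, 1 to 7 members lower, 0 to 7 other pathway genes and a median of -0.18 to -0.065 resulted, the highest counts without Ad-Control 2. Samples that share a replicate number do not deviate together (correlations of 0.035, -0.138 and -0.125), so the numbers were not taken as pairs; with the replicate block, which leaves fewer degrees of freedom, 141 genes, 0 members higher, 0 lower and 1 other pathway gene were called. Over 57 named genes and 18 settings no called gene changed sign, and 25 values of genes past the threshold in neither fit did. Where not stated, the cause was not tested. Arrays of 3 livers a group and probes near background, such as those of Fbp2 and Sik1 and the second Pklr probe, limit what can be read. The overlap of non-normalized signals limits the brightest Pklr probe as well.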
